A study of Mus musculus with 42 samples.

Results

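mCherry+/GFP+ cells sorted at day 10 of reprogramming were set against mCherry+/GFP- cells sorted at day 8, both from the totalx2 reporter lines. The comparison takes in 6 of the 42 RNA-seq libraries of the series, 3 in each group, picked by the cell source in the labels, and runs across every gene counted. The labels place the day 10 GFP+ cells in stage II of a reprogramming route that starts from mouse embryonic fibroblasts and ends with iPSC (induced pluripotent stem cells), and the day 8 GFP- cells in stage I. mCherry+/GFP- cells of day 10, also stage I and also 3 libraries, were used as a second point of reference. Every one of these groups is labelled male, carries Tet1tm1.1Koh on B6 and Pou5f1tm2Jae/J on B6;129S4, and has Tg(mCherry)/wt with Tg(GFP)/wt as its genotype. Pou5f1tm2Jae sets GFP under the control of Pou5f1 itself, so the GFP gate reads that gene, and mCherry goes by the strain name with Tet1. The day and the GFP gate change together between the day 10 GFP+ and day 8 GFP- cells, and their shares cannot be told apart there. The day 10 GFP- cells share the day with one of these groups and the gate with the other. Replicates 1, 2 and 3 are 3 independent lines, the same lines in each group. The p-values rest on the spread between libraries within groups, with an estimate shared over all 7 groups of the fit. Those groups include totalx2 day 12 cells, wild-type iPSC clones and Tet1 knockout iPSC clones. The main fit does not pair the libraries by line. The factors used for reprogramming are not named in the labels.

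Fibroblasts on the way to pluripotency first give up their mesenchymal programme and take on cell contacts of epithelia, and only later run the pluripotency network from their own genes. That network is built around the transcription factors Pou5f1 (Oct4), Nanog and Esrrb, and in its naive form, the state of the early epiblast, it is joined by Zfp42, Tfcp2l1, Prdm14 and others. The enzymes that write and oxidise 5-methylcytosine are rewired on the same route, Tet1 and Tet2 being the oxidising enzymes of mouse pluripotent cells and Dnmt3a, Dnmt3b and Dnmt3l the parts of the de novo methylation machinery.

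The day 10 GFP+ libraries held 6540256 to 8084865 counts, the day 10 GFP- libraries 10911378 to 11633790 and the day 8 GFP- libraries 9696804 to 10569815. Mitochondrially encoded genes took 2.63 to 3.28% of the counts in the 6 libraries of the comparison. Of 48321 gene names, 15197 passed the filter on low counts and were tested. Levels are given in CPM, read counts scaled to the TMM-adjusted size of the library, and each difference as a log2 fold change ± its standard error. A gene is called where its adjusted p in edgeR's quasi-likelihood test, by Benjamini-Hochberg over all tested genes, is below 0.05, and every adjusted p below comes from that test. Reads were counted over the whole gene body and by gene name, so that reads from a delivered copy of a factor and from the cell's own gene fall in 1 count.

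Day 10 GFP+ cells differed from day 8 GFP- cells over a large part of the transcriptome. At the threshold 6489 genes were called, 42.7% of those tested, with 3439 higher (22.6%) and 3050 lower (20.1%) in day 10 GFP+ cells. Rises reached further than falls, since 453 genes were called more than 8-fold higher and 44 more than 8-fold lower, 1524 and 1091 of the called genes passing 2-fold. Of the 453, 112 had no count in any day 8 library, so their fitted fold depends on the prior count. In 4428 tested genes (29.1%) all day 10 GFP+ libraries lay above all day 8 libraries, and in 4147 (27.3%) they all lay below. In bulk libraries a change in the share of cells that express a gene and a change in RNA per cell cannot be told apart. The median log2 fold change over all tested genes was 0.01. On the first principal component of the 500 most variable genes, which took 81.2% of the variance of the 15 totalx2 libraries, day 10 GFP+ libraries lay at -28.1 to -23.4, between the day 12 GFP+ libraries at -59.2 to -57.0 and the day 10 GFP- libraries at 24.9 to 28.7, with day 8 libraries at 37.9 to 41.9. The same test called 3398 genes (22.4%) between day 10 GFP+ and day 10 GFP- cells, 1975 higher (13%) and 1423 lower (9.36%). That split was 1785 higher and 1610 lower with RLE size factors, and 1615 and 1531 with these 2 groups fitted alone. The main test called 3147 (20.7%) between day 10 GFP- and day 8 GFP- cells, 1519 higher (10.0%) and 1628 lower (10.7%), or 1864 higher and 1293 lower scaled by library totals alone. Without the second day 8 library that last count was 1629, and without the first day 10 GFP- library 1677. These 2 comparisons share libraries with each other and with the first, and their values are set side by side below without any test between them.

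**Figure D1:**
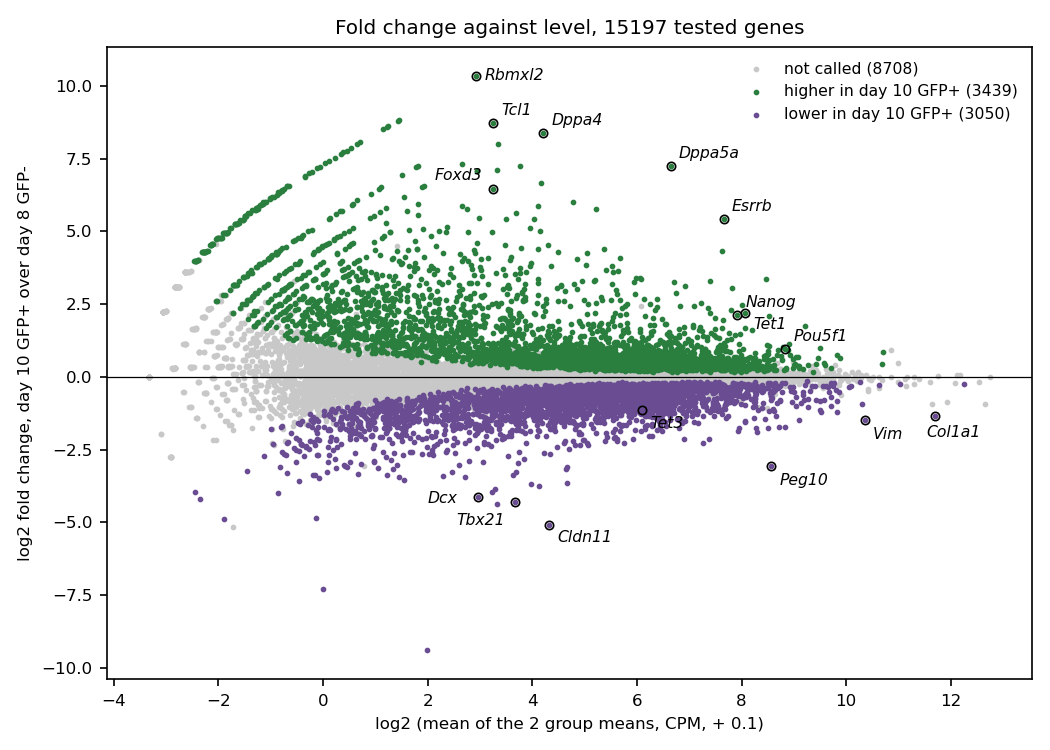
Log2 fold change of day 10 GFP+ over day 8 GFP- cells (vertical axis) against the log2 of the mean of the 2 group means in CPM plus 0.1 (horizontal axis) for 15197 tested genes, each a point, with 3439 called higher in green, 3050 called lower in purple and the others in grey. Rises extend to a fitted log2 fold change of 10.35 at Rbmxl2, and the largest fall labelled is -5.09 at Cldn11. The green streaks at the upper left are genes with 0 or few counts at day 8.

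Taking called genes without overlap between libraries whose higher group averaged 10 CPM or more, the 12 largest rises were Rbmxl2, Tcl1, Dppa4, Lrrc34, Dppa5a, Trap1a, Ina, Dnmt3l, Foxd3, Rhox5, Fabp3 and Olig2. Rbmxl2, a germ-cell RNA-binding protein related to Rbmx, had 12.7, 18.7 and 13.5 CPM in the day 10 GFP+ libraries, against 0 in every day 8 library, which makes it at least 50-fold higher at a floor of 3 counts per library. Tcl1, a co-activator of AKT kinases typical of naive cells, had 17.3, 18.6 and 20.7 CPM in day 10 GFP+ libraries, against 0, 0 and 0.102 CPM in day 8 libraries (adjusted p = 5.7e-11), with 1 read in all at day 8 and therefore no fold given. Dppa5a, an RNA-binding protein of pluripotent cells, had 191, 172 and 232 CPM in day 10 GFP+ and 0.751, 0.822 and 2.36 CPM in day 8 libraries (log2 fold change 7.24 ± 0.43, adjusted p = 5.11e-10). These genes were thus absent or low at day 8. Rhox5, an X-linked homeobox gene, rose by 6.01 ± 0.32. Trap1a, an X-linked tumour antigen gene, had 26.4, 23.7 and 30.0 CPM in day 10 GFP+ libraries, against 0.188, 0.103 and 0.205 CPM in day 8 libraries. Olig2, a transcription factor better known from neural cells, had 9.22, 16.7 and 10.5 CPM in day 10 GFP+ and 0.376, 0.103 and 0.102 CPM in day 8 libraries. Ina, a neuronal intermediate filament, had 14.01, 16.1 and 15.2 CPM in day 10 GFP+ and 0, 0.205 and 0.102 CPM in day 8 libraries. The day 8 means of Trap1a, Olig2 and Ina lay under the floor of 3 counts per library, and no fold is given. Set against the day 10 GFP- cells, all 12 were called higher in day 10 GFP+ cells, where 13% of all tested genes were called higher. The 12 had been picked for high values in the same day 10 GFP+ libraries, so these calls are not independent of the choice.

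The 12 largest falls under the same rule were Cldn11, Pkp1, Tbx21, Dcx, Adamts20, Hhip, Irx5, Tfap2b, Prkcb, Spn, Pdzph1 and Sox6. Cldn11, a tight-junction claudin of myelin and testis, had 1.11, 1.08 and 1.18 CPM in day 10 GFP+ libraries, against 54.4, 32.8 and 28.8 CPM in day 8 libraries (log2 fold change -5.09 ± 0.40, adjusted p = 6.93e-09). Pkp1, the desmosomal plakophilin of stratified epithelia, had 1.11, 0.601 and 1.04 CPM in day 10 GFP+ and 24.3, 22.8 and 9.93 CPM in day 8 libraries (-4.37 ± 0.38). Dcx, a microtubule-binding protein of young neurons, had 0.492, 0.841 and 1.18 CPM in day 10 GFP+ and 15.8, 11.8 and 15.9 CPM in day 8 libraries (-4.12 ± 0.44). The transcription factor genes Tbx21, Irx5, Tfap2b and Sox6 were in the same set, and so were Hhip, an antagonist of hedgehog ligands, and Spn, a sialoglycoprotein of leukocytes. Set against the day 10 GFP- cells, 11 of the 12 were called lower, the exception being Pdzph1 (adjusted p = 0.575). Of all tested genes 9.36% were called lower there. The call of Tfap2b was lost without the third day 10 GFP- library (adjusted p = 0.0502). The 12 had been picked for low values in the same day 10 GFP+ libraries, so these calls are not independent of the choice.

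Both genes that name the reporters were higher in day 10 GFP+ cells. Pou5f1 had 662, 569 and 577 CPM in day 10 GFP+ libraries, 451, 361 and 323 CPM in day 10 GFP- libraries and 345, 280.1 and 304 CPM in day 8 libraries. All day 10 GFP+ values lay above those of both other groups, with a log2 fold change over day 8 of 0.96 ± 0.17 (adjusted p = 0.000122) and over day 10 GFP- cells of 0.67 ± 0.16 (adjusted p = 0.0053, or 0.0507 without the third day 10 GFP- library). The GFP gate reads this gene, so its rise is not independent of the sort. Tet1 had 529.7, 384 and 407 CPM in day 10 GFP+ libraries, 264, 244 and 193 CPM in day 10 GFP- libraries and 101, 82.3 and 102 CPM in day 8 libraries, although all groups were sorted as mCherry+. The log2 fold change over day 8 was 2.21 ± 0.16 (adjusted p = 3.57e-09), made up of 0.91 ± 0.16 over day 10 GFP- cells and 1.30 ± 0.16 between day 10 GFP- and day 8 cells. Klf4 and Myc, a pair of the classical reprogramming factors, moved little. Klf4 averaged 499 ± 38.4 CPM in day 10 GFP+ and 526 ± 16.2 CPM in day 8 cells (SD, n = 3 each) and was not called (adjusted p = 0.68), while Myc was at 447 ± 33.0 CPM in day 10 GFP+ and 571 ± 17.7 CPM in day 8 cells (-0.35 ± 0.09, adjusted p = 0.00355).

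Core pluripotency genes rose together. All 20 genes of that list were called higher in day 10 GFP+ than in day 8 cells, against 22.6% of all tested genes, and the median log2 fold change was 2.32. Foxd3, a forkhead factor needed by pluripotent cells, had 18.2, 17.8 and 19.7 CPM in day 10 GFP+ libraries, against 0.0939, 0.103 and 0.410 CPM in day 8 libraries (adjusted p = 6.98e-12, no fold given, the day 8 mean being under the same floor). Lin28a, an RNA-binding protein that blocks let-7 maturation, had 36.4, 31.5 and 35.4 CPM in day 10 GFP+ and 1.41, 1.03 and 0.717 CPM in day 8 libraries (5.005 ± 0.24, adjusted p = 1.26e-11). Every day 10 GFP+ library was at least several times above every day 8 library in both genes. Nanog, already well above the floor at day 8, had 379, 369 and 429 CPM in day 10 GFP+ libraries, 120.0, 117 and 95.6 CPM in day 10 GFP- libraries and 98.8, 70.0 and 103 CPM in day 8 libraries (2.11 ± 0.15 over day 8). Sall4, a zinc-finger factor, had 287, 269 and 267 CPM in day 10 GFP+ and 54.3, 38.1 and 67.6 CPM in day 8 libraries (2.36 ± 0.14). In both, the day 10 GFP+ libraries lay above those of day 10 GFP- and day 8. The smallest rises of the list were those of L1td1 (0.41 ± 0.15), an RNA-binding protein derived from a retrotransposon, and Rif1 (0.66 ± 0.18), a replication-timing and telomere-associated protein. The call of L1td1 was lost when any 1 of the 6 libraries was left out (adjusted p of 0.109, 0.0639 and 0.0597 without day 10 GFP+ libraries 1, 2 and 3, and 0.0532, 0.153 and 0.0565 without day 8 libraries 1, 2 and 3) and with RLE size factors (0.0564). Against day 10 GFP- cells 18 of the 20 were called higher and none lower (median 1.75), and between day 10 GFP- and day 8 cells 8 were higher and none lower (median 0.56).

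The promoter windows of Foxd3 and Lin28a are shown because these 2 had the smallest p in the core list. They run from 250 bases before to 50 after the transcription start, from RefSeq on GRCm38.p6, with CG dinucleotides, the sites of DNA methylation, in capitals. Foxd3 lies on the plus strand at chr4:99656049-99656348 and Lin28a on the minus strand at chr4:134018767-134019066.
Foxd3: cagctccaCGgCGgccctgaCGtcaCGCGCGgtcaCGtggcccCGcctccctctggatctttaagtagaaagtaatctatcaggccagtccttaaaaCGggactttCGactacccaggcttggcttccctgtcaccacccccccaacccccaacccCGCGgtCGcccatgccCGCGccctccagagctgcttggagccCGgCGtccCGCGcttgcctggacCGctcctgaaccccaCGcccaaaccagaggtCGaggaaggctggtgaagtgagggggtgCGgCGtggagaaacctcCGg
Lin28a: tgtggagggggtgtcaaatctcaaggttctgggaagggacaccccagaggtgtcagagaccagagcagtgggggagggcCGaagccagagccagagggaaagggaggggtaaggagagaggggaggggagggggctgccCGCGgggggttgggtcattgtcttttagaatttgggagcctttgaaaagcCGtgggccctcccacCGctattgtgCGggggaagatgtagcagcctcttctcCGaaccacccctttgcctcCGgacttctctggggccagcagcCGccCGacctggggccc
The Foxd3 window held 25 CG and the Lin28a window 10, where the median of the 10773 tested genes with a RefSeq promoter was 20. Neither held the octamer ATTTGCAT on either strand, which 1.49% of those promoters hold, and no methylation was measured in these cells.

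The naive state was represented by 22 genes, of which 19 were called higher, 1 lower and 2 not, with a median log2 fold change of 2.45. Of all tested genes 22.6% were called higher and 20.1% lower. Esrrb, an orphan nuclear receptor at the centre of the naive network, had 397, 367 and 418 CPM in day 10 GFP+ libraries, 80.2, 55.2 and 45.0 CPM in day 10 GFP- libraries and 7.33, 6.27 and 13.9 CPM in day 8 libraries. Its log2 fold change over day 8 was 5.43 ± 0.26 (adjusted p = 2.22e-11), of which 2.71 ± 0.22 lay between the 2 gates at day 10 and 2.72 ± 0.25 between day 10 GFP- and day 8 cells. Esrrb was thus graded over the 3 groups with no overlap. Dppa3 (Stella), a maternal factor that protects 5-methylcytosine, was at 36.6, 31.4 and 30.5 CPM in day 10 GFP+ libraries, 1.72, 1.86 and 0.757 CPM in day 10 GFP- libraries and 1.13, 0.924 and 2.66 CPM in day 8 libraries. Here the step lay between the gates (4.50 ± 0.31, adjusted p = 3.11e-09), and day 10 GFP- and day 8 libraries overlapped (adjusted p = 0.891). Zfp42 (Rex1), a marker of naive cells, had 18.7, 16.1 and 19.4 CPM in day 10 GFP+ libraries, against 0.470, 0.616 and 0.614 CPM at day 8 (4.97 ± 0.29). Zfp57, which guards imprinted methylation, had the smallest p of the list (3.28 ± 0.12, adjusted p = 1.68e-12), and Prdm14, a repressor of de novo methylation genes in naive cells, rose by 5.42 ± 0.26. Tfcp2l1 had 286, 252 and 289 CPM in day 10 GFP+ and 58.8, 59.0 and 61.4 CPM in day 8 libraries (2.20 ± 0.12). Stat3, the signal transducer of LIF, was the 1 member called lower (-0.47 ± 0.10), and Klf4 and Gbx2 were not called. Against day 10 GFP- cells 19 were called higher and none lower.

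Genes of the formative and primed epiblast, the later states before gastrulation, rose as well, with 10 of 13 tested members called higher and 2 lower (median 1.55). The shares of all tested genes were 22.6 and 20.1%. Fgf5, Cer1, T, Fgf15 and Car14 were below the filter and not tested. Lefty2, a secreted antagonist of Nodal, had 50.02, 69.2 and 69.1 CPM in day 10 GFP+ and 3.29, 2.26 and 4.20 CPM in day 8 libraries (4.27 ± 0.30). Lefty1, its paralogue, had 38.5, 39.9 and 37.6 CPM in day 10 GFP+ and 7.33, 5.75 and 6.14 CPM in day 8 libraries (2.59 ± 0.26). Neither overlapped between the groups. Otx2, a homeobox factor of the primed epiblast, had 1.72, 1.68 and 4.73 CPM in day 10 GFP+ libraries, against 0 in every day 8 library, at least 9.07-fold higher at the floor of 3 counts. Nodal, the ligand, rose by 1.55 ± 0.18, and most of that rise lay between day 10 GFP- and day 8 cells (1.21 ± 0.18), with 0.35 ± 0.17 between the gates (adjusted p = 0.168). Sall2 (-1.37 ± 0.16) and Lef1 (-1.76 ± 0.43) were the members called lower.

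**Figure D2:**
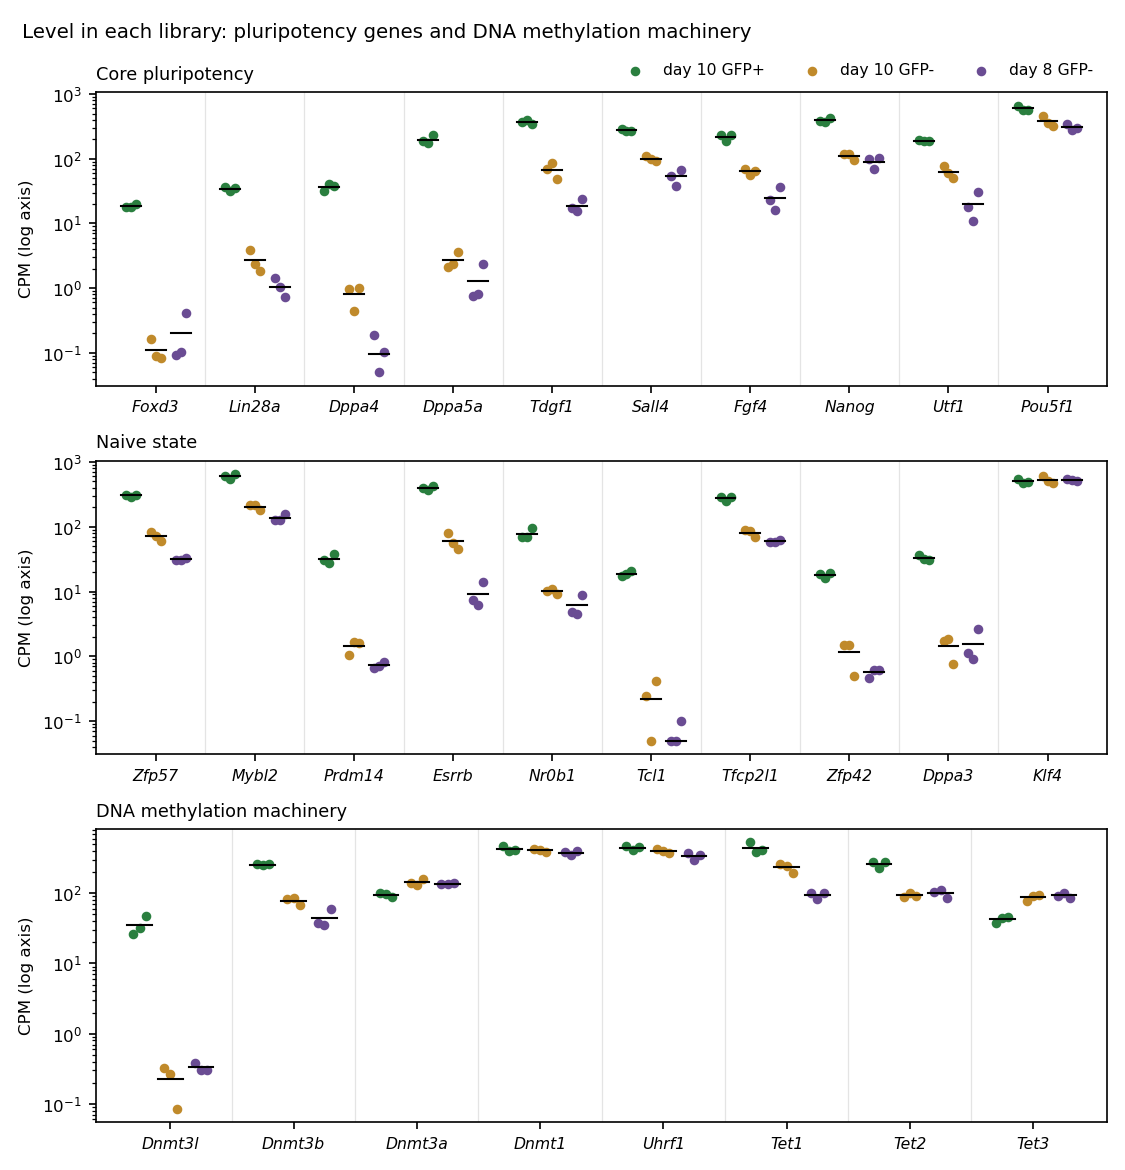
CPM on a log axis in each library of day 10 GFP+ (green), day 10 GFP- (ochre) and day 8 GFP- cells (purple), 1 point per line and a bar at the mean, for core, naive and DNA methylation genes, with values of 0 drawn at 0.05. Dppa4, Dppa5a and Dnmt3l are far above both GFP- groups in all 3 day 10 GFP+ libraries, whereas Klf4 lies at 469 to 543 CPM in day 10 GFP+ and 514 to 545 CPM in day 8 libraries.

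The de novo methylation genes moved in different directions. Dnmt3l, the catalytically inactive partner of the DNMT3 enzymes, had 26.7, 31.6 and 47.3 CPM in day 10 GFP+ libraries, 0.328, 0.266 and 0.0841 CPM in day 10 GFP- libraries and 0.376, 0.308 and 0.307 CPM in day 8 libraries (6.67 ± 0.35 over day 8, adjusted p = 4.52e-11). Its level was below 0.5 CPM in every GFP- library of both days. Dnmt3b, the main de novo methyltransferase of the epiblast, had 259, 251 and 259 CPM in day 10 GFP+ libraries, 82.0, 84.4 and 68.6 CPM in day 10 GFP- libraries and 37.9, 35.8 and 59.3 CPM in day 8 libraries (2.53 ± 0.15). Dnmt3a fell slightly, with 101, 98.5 and 87.4 CPM in day 10 GFP+ and 138, 134 and 139 CPM in day 8 libraries (-0.52 ± 0.10, adjusted p = 0.000261). Among the oxidising enzymes, Tet2 had 278, 231 and 279 CPM in day 10 GFP+ libraries, against 105, 112 and 85.9 CPM at day 8 (1.38 ± 0.19), and Tet3, active in oocytes and in many differentiated cells, had 37.4, 44.8 and 45.9 CPM in day 10 GFP+ and 92.5, 101 and 86.1 CPM in day 8 libraries (-1.13 ± 0.11). For Tet2 and Tet3 the day 10 GFP- means, 93.6 and 87.8 CPM, were close to those of day 8, and neither was called between day 10 GFP- and day 8 cells (adjusted p = 0.759 and 0.631). The maintenance methyltransferase Dnmt1 was not called (0.16 ± 0.09, adjusted p = 0.153), but with library totals alone its adjusted p was 0.0342 and without the first WT iPSC library 0.0351. Its partner Uhrf1 rose by 0.39 ± 0.11, with an adjusted p of 0.0585 without the second day 8 library. In the list as a whole 7 of 15 tested genes were higher and 3 lower (median 0.16), against 22.6 and 20.1% of all tested genes.

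Polycomb genes, whose products repress developmental genes through histone H3K27 methylation and H2A ubiquitination, had calls in both directions. Of 21 tested members 7 were called higher, 6 lower and 8 not (median 0.26), where 22.6% of all tested genes were called higher and 20.1% lower. Cbx7, the chromodomain subunit of PRC1 typical of pluripotent cells, had 157, 132 and 136 CPM in day 10 GFP+ libraries, against 39.9, 29.2 and 38.5 CPM in day 8 libraries (1.98 ± 0.15, adjusted p = 6.4e-09). Cbx8, an alternative subunit in the same position, and Bmi1, a PRC1 ring-finger protein, fell (-1.500 ± 0.27 and -1.18 ± 0.18). The PRC2 accessory proteins Mtf2 (1.499 ± 0.14) and Jarid2 (1.28 ± 0.11) and the core subunit Eed (1.28 ± 0.13) rose, Ezh2 and Suz12 by less (0.64 ± 0.15 and 0.46 ± 0.12).

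Germline and meiosis genes appeared at low levels in the day 10 GFP+ cells. Of 30 genes 28 were tested, many of them passing the filter through other groups of the fit, and 14 were called higher and none lower in day 10 GFP+ cells. The share of all tested genes called higher was 22.6%. With the 6 libraries of the comparison fitted alone, 10 passed the filter and 8 were called higher. Hormad2, which coats unsynapsed meiotic chromosomes, had 7.37, 6.01 and 5.33 CPM in day 10 GFP+ libraries, against 0.751, 0.719 and 0.614 CPM in day 8 libraries (3.15 ± 0.31, adjusted p = 1.42e-07). Dmc1, the meiotic recombinase, had 6.39, 4.45 and 6.21 CPM in day 10 GFP+ and 0.470, 1.03 and 0.922 CPM in day 8 libraries (2.81 ± 0.30, adjusted p = 5.14e-07). Tex19.1, a retrotransposon-control gene of germ and pluripotent cells, had 9.71, 9.73 and 11.8 CPM in day 10 GFP+ and 3.76, 1.64 and 1.64 CPM in day 8 libraries (2.12 ± 0.29). In all of these the groups did not overlap, yet the levels stayed below the means in day 12 GFP+ cells, 17.8, 21.99 and 30.7 CPM. Dazl, a germ-cell RNA-binding protein, had 0.983, 0.601 and 1.18 CPM in day 10 GFP+ libraries, against 0 in every day 8 and day 10 GFP- library, at least 3.09-fold higher than day 8 at the floor of 3 counts. Rpl10l, the germ-cell copy of a ribosomal protein gene, was at least 7.19-fold higher by the same bound. Of the 28 genes, 8 were at or under the floor in both groups, and over the other 20, with such genes at their bound, the median log2 fold change was 1.52 (1.94 as fitted over all 28). The counts by gate were 17 higher and none lower in day 10 GFP+ against day 10 GFP- cells (fitted median 2.20; 7 higher with these 2 groups fitted alone), and 2 higher and 1 lower in day 10 GFP- against day 8 cells.

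Promoters of many germline genes are known to be kept silent in other cells by DNA methylation and by a repressor complex that binds E-boxes. The windows of Hormad2 and Dmc1, the called members with the smallest p, are shown in the same form, Hormad2 on the minus strand at chr11:4441033-4441332 and Dmc1 on the minus strand at chr15:79605060-79605359.
Hormad2: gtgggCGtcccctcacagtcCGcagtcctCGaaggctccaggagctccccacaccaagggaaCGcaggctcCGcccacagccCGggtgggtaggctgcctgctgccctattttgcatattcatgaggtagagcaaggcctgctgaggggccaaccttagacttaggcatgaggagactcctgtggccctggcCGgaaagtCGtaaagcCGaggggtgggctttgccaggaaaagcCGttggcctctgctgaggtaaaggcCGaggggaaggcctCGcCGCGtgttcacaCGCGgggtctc
Dmc1: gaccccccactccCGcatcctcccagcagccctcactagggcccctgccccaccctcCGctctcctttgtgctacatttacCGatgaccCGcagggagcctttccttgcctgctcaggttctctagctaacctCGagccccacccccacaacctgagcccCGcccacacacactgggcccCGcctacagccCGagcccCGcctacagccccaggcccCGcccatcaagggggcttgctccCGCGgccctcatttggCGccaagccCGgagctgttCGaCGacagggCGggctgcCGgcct
These windows held 16 and 18 CG, near the median of 20, and no E-box CACGTG, which reads the same on both strands. Of the 14 called members 13 had a RefSeq promoter, and 5 of the 13 (38.5%) held CACGTG in the window, namely Stag3, Mov10l1, Hormad1, Fkbp6 and Sycp3, against 10.0% of the 10773 promoters. The sets are small, and called members of the other lists ranged from 0% (naive state, 12 promoters) to 28.6% (TGF-beta, 2 of 7). The core pluripotency list stood at 23.1% (3 of 13). This is a description of letters in a window.

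Epithelial adhesion genes were mostly higher. Of 22 genes 19 were called higher and 2 lower (median 1.87), where 22.6% of all tested genes were called higher and 20.1% lower. Esrp1, a splicing regulator of epithelia, had 98.7, 84.2 and 93.7 CPM in day 10 GFP+ libraries, 31.4, 28.0 and 22.9 CPM in day 10 GFP- libraries and 5.73, 5.34 and 11.2 CPM in day 8 libraries (3.64 ± 0.22 over day 8, adjusted p = 3.07e-10). Cldn6, a claudin of early embryonic epithelia, had 103, 59.8 and 73.5 CPM in day 10 GFP+, 28.9, 12.9 and 15.2 CPM in day 10 GFP- and 3.95, 1.95 and 5.32 CPM in day 8 libraries (4.39 ± 0.40). Epcam, an adhesion molecule of epithelial and pluripotent cells, had 357, 278 and 317 CPM in day 10 GFP+, 201, 170.4 and 149 CPM in day 10 GFP- and 78.4, 58.3 and 108 CPM in day 8 libraries (1.96 ± 0.17). In these genes the 3 groups followed each other without overlap. Cdh1 (E-cadherin) was already high at day 8, with 463, 401 and 459.7 CPM in day 10 GFP+ libraries, against 245, 218 and 323 CPM in day 8 libraries (0.75 ± 0.13, adjusted p = 8.66e-05), and it was not called between the gates of day 10 (adjusted p = 0.402). Dsp, the desmosomal plakin, went the other way with 85.7, 54.9 and 74.0 CPM in day 10 GFP+ and 238, 213 and 192 CPM in day 8 libraries (-1.58 ± 0.19), and so did Cldn3 (-1.07 ± 0.34, adjusted p = 0.0892 without the second day 10 GFP+ library), so that 1 gene instead of 2 was then lower. By step, 17 of the 22 were called higher and none lower between day 10 GFP- and day 8 cells (median 1.12), and 11 higher and 1 lower between the gates (median 0.69).

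Mesenchymal transcription factors fell, 16 of 18 tested members being called lower and none higher (median -1.18), where 20.1% of all tested genes were called lower. Foxc1 had 7.74, 11.3 and 10.2 CPM in day 10 GFP+ libraries, against 22.7, 28.8 and 24.4 CPM in day 8 libraries (-1.37 ± 0.18, adjusted p = 4.99e-06). Tbx15, a T-box factor of mesenchyme and skeleton, had 35.3, 65.1 and 55.8 CPM in day 10 GFP+ and 139, 137 and 159 CPM in day 8 libraries (-1.48 ± 0.21). Twist1, Zeb1, Zeb2, Snai1 and Snai2, repressors of epithelial genes, fell by 1.20, 0.91, 1.38, 0.96 and 1.40 on the log2 scale. In all of these the day 10 GFP+ libraries lay below the day 8 libraries, although Snai1 was not called without the first day 10 GFP+ library (adjusted p = 0.0952) or the second day 8 library (0.0780). By step, 13 were called lower between day 10 GFP- and day 8 cells (median -0.91) and 4 lower between the gates (median -0.21). The count of 13 was 7 without the second day 8 library and 6 without the first day 10 GFP- library. Of all tested genes 10.7% were called lower between day 10 GFP- and day 8 cells, and 9.36% between the gates.

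Fibroblast and extracellular matrix genes were lower at day 10, with wide spread between lines. Of 30 genes 18 were called lower and none higher in day 10 GFP+ against day 8 cells (median -0.94), where 20.1% of all tested genes were called lower. Col1a1, the main fibrillar collagen, had 1055, 2772 and 1818 CPM in day 10 GFP+ libraries, 600.4, 1195 and 1771 CPM in day 10 GFP- libraries and 3443, 5836 and 4971 CPM in day 8 libraries (-1.34 ± 0.33 over day 8, adjusted p = 0.00358). The groups of day 10 overlapped, and both lay below day 8. Within each line Col1a1 was higher in the GFP+ than in the GFP- library of day 10. With the line as a block that difference was called (log2 fold change 0.68, adjusted p = 0.0232, against 0.168 with no block). Vim (vimentin), an intermediate filament, had 416, 896 and 754 CPM in day 10 GFP+, 822, 1018 and 1359 CPM in day 10 GFP- and 1719.6, 2004 and 2044 CPM in day 8 libraries (-1.48 ± 0.20). Between the gates of day 10 Vim was lower in GFP+ cells within each line and was called (-0.63 ± 0.19, adjusted p = 0.0224). That gate call was lost without the first day 10 GFP+ library (0.0623) or the third day 10 GFP- library (0.117). It was also lost with the 2 groups fitted alone (0.135). Thy1, a surface protein of fibroblasts, had 56.4, 112 and 111 CPM in day 10 GFP+ libraries, against 151, 203 and 178 CPM at day 8 (-0.93 ± 0.32, adjusted p = 0.0255), and this call was lost without the first day 10 GFP+ library (adjusted p = 0.112), without the second day 8 library (0.0790) and with no low-count filter (0.0712). Fn1 (fibronectin) was not called, at 2489 ± 66.3 CPM in day 10 GFP+ and 2516 ± 472 CPM in day 8 cells (SD, n = 3 each). The summed level of the list was 10135, 22162 and 17611 CPM in day 10 GFP+ libraries, 7172, 12254 and 17460.0 CPM in day 10 GFP- libraries and 24077, 37180.0 and 30675 CPM in day 8 libraries. Line 1 was thus the lowest in each group. The count of 18 is unsteady: it was 8 without the first day 10 GFP+ library, 6 without the second day 8 library, 9 with no low-count filter and 11 with the 2 groups fitted alone. Between the gates at day 10 the list showed 2 genes higher and 1 lower (median 0.51), and between day 10 GFP- and day 8 cells none higher and 22 lower (median -1.25). The number higher between the gates was 8 with the line as a block, 10 without the first day 10 GFP+ library and 11 without the third day 10 GFP- library.

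Genes of the contractile apparatus in the muscle list were 8 lower, 3 higher and 3 not called of 14 tested. Of all tested genes 20.1% were called lower and 22.6% higher. Tpm1, a tropomyosin, had 202, 237 and 232 CPM in day 10 GFP+ libraries, against 446, 583 and 497 CPM in day 8 libraries (-1.19 ± 0.13), and Acta2, smooth-muscle actin, fell by 1.44. Des (desmin) rose by 2.97 ± 0.30, and Myog, which defines skeletal muscle, had no count in any of these libraries.

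Interferon-induced and MHC class I genes were lower in day 10 GFP+ than in day 8 cells. Among 20 tested members 18 were called lower and none higher (median -1.06), where 20.1% of all tested genes were called lower. Ifit3, an antiviral tetratricopeptide protein, had 6.27, 11.4 and 12.1 CPM in day 10 GFP+ libraries, 1.47, 5.75 and 6.31 CPM in day 10 GFP- libraries and 40.3, 66.3 and 43.3 CPM in day 8 libraries (-2.33 ± 0.36 over day 8, adjusted p = 3.92e-05). Isg15, a ubiquitin-like modifier, had 10.1, 23.8 and 19.7 CPM in day 10 GFP+, 5.49, 9.82 and 16.7 CPM in day 10 GFP- and 60.4, 91.5 and 75.7 CPM in day 8 libraries (-2.09 ± 0.32). Irf7, the transcription factor that amplifies type I interferon, had 8.23, 21.6 and 16.6 CPM in day 10 GFP+, 4.67, 9.65 and 12.6 CPM in day 10 GFP- and 47.2, 72.2 and 57.1 CPM in day 8 libraries (-1.93 ± 0.32). For all of these the day 8 libraries stood above both day 10 groups. The day 10 groups overlapped, but within each line the GFP+ library was above the GFP- library. With the line as a block Isg15 was called higher in day 10 GFP+ than in day 10 GFP- cells (log2 fold change 0.75, adjusted p = 0.0134, against 0.127 with no block). B2m, the light chain of MHC class I, fell by 0.96 on the log2 scale and H2-K1, a heavy chain, by 0.76. Without the first day 10 GFP+ library neither was called (adjusted p of 0.0731 and 0.0650), and B2m was not called without the second day 8 library (0.0674). The list was lower already in day 10 GFP- cells, with 18 called lower and none higher against day 8 (median -1.44). The share of all tested genes called lower there was 10.7%. Between the gates 3 of the 20 were called higher and none lower in GFP+ cells (median 0.52), near the 13% of all tested genes called higher. With the line as a block the number of members higher between the gates was 9. It was 12 without the first day 10 GFP+ or the third day 10 GFP- library. Ifit3 was among the 3 called with no block (1.14 ± 0.39, adjusted p = 0.0397), a call that was lost without the second or the third day 10 GFP+ library, without the first day 10 GFP- library, with no low-count filter and with the 2 groups fitted alone (adjusted p of 0.122, 0.143, 0.137, 0.106 and 0.133). The summed level was 834, 1283 and 1126 CPM in day 10 GFP+ libraries, 775, 828 and 1102 CPM in day 10 GFP- libraries and 1791, 2281 and 2024 CPM in day 8 libraries.

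Most leukocyte markers of the list were higher in day 10 GFP+ cells than in either GFP- group, but the summed level overlapped between the gates. Spn, a leukocyte gene outside the list and named above among the falls, went the other way. It was lower in day 10 GFP+ than in day 8 cells (-3.45 ± 0.33) and than in day 10 GFP- cells (-2.27 ± 0.34). Of 13 tested genes 11 were called higher and none lower in day 10 GFP+ against day 8 cells (median 1.83), and 11 higher and 1 lower against day 10 GFP- cells (median 3.08), while 1 was higher and 3 were lower between day 10 GFP- and day 8 cells (median -0.75). That last count was 5 with the line as a block, and 1 with the 2 groups fitted alone, without the second day 8 library and without the first day 10 GFP- library. The shares of all tested genes called higher and lower in day 10 GFP+ cells were 22.6 and 20.1% against day 8 cells. They were 13 and 9.36% against day 10 GFP- cells, and 10.0 and 10.7% between day 10 GFP- and day 8 cells. Csf1r, the receptor for macrophage colony-stimulating factor, had 3.81, 10.6 and 11.5 CPM in day 10 GFP+ libraries, 0.491, 1.42 and 0.757 CPM in day 10 GFP- libraries and 1.22, 1.23 and 1.64 CPM in day 8 libraries (2.65 ± 0.46 over day 8, adjusted p = 0.000136). Adgre1 (F4/80), a macrophage surface receptor, had 7.01, 23.9 and 26.3 CPM in day 10 GFP+, 0.246, 3.81 and 2.86 CPM in day 10 GFP- and 5.35, 4.31 and 1.84 CPM in day 8 libraries (2.30 ± 0.56). Lyz2, the lysozyme of myeloid cells, had 29.5, 99.7 and 107 CPM in day 10 GFP+, 3.28, 15.2 and 9.09 CPM in day 10 GFP- and 30.2, 29.1 and 9.73 CPM in day 8 libraries (1.77 ± 0.48), so that its first day 10 GFP+ library lay within the day 8 range. Ptprc (CD45), which defines leukocytes, was detected in all 9 libraries, at 1.47, 4.69 and 5.77 CPM in day 10 GFP+, 0.246, 0.531 and 0.589 CPM in day 10 GFP- and 1.31, 1.13 and 0.717 CPM in day 8 libraries. In Csf1r, Adgre1, Lyz2 and Ptprc the second and the third day 10 GFP+ libraries were well above the first. Itgam shares 92.3% of its span with another gene on the same strand, so its count is uncertain. The summed level of the list was 243, 364 and 359 CPM in day 10 GFP+ libraries, 304, 292 and 236 CPM in day 10 GFP- libraries and 208, 182 and 158 CPM in day 8 libraries, with Laptm5, not called (0.21 ± 0.14, adjusted p = 0.236), at 173, 158 and 143 CPM of it in day 10 GFP+ libraries. Whether leukocytes in the sorted fraction had a part in the other differences was not tested.

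**Figure D3:**
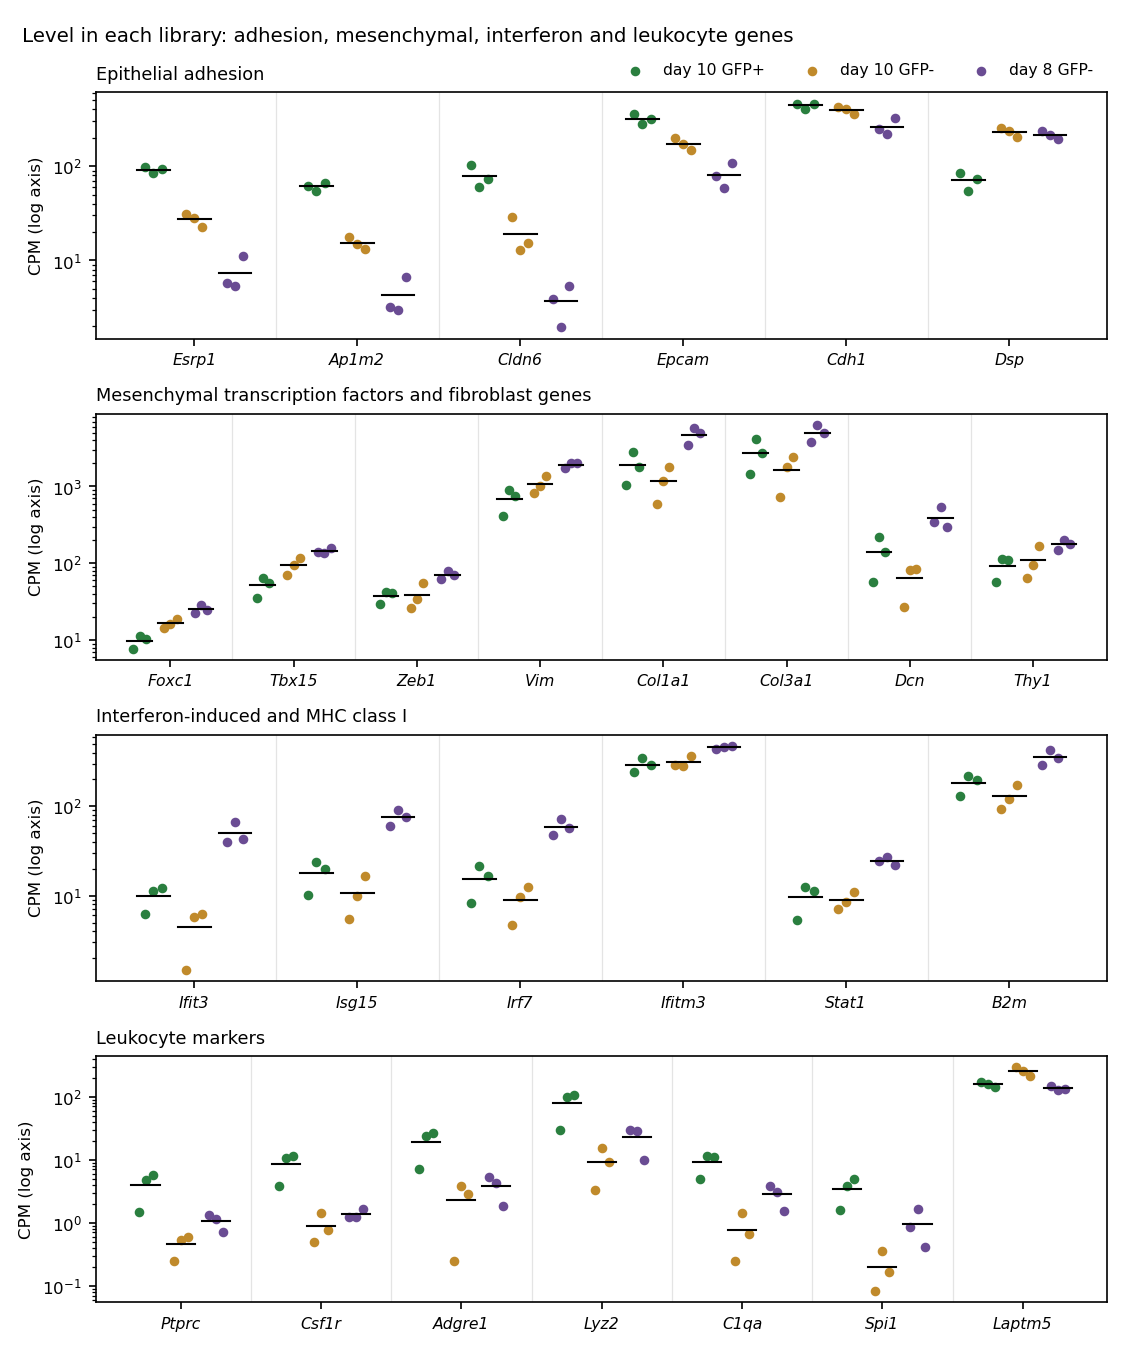
CPM on a log axis in each library of day 10 GFP+ (green), day 10 GFP- (ochre) and day 8 GFP- cells (purple), 1 point per line and a bar at the mean, for adhesion, mesenchymal and fibroblast, interferon-induced and leukocyte genes. Esrp1, Ap1m2, Cldn6 and Epcam are highest in day 10 GFP+ cells and Foxc1 and Tbx15 lowest there. Vim is lowest there by its mean and within each line, though its libraries overlap between the gates of day 10. Ifit3, Isg15 and Irf7 stand highest at day 8, and Csf1r, Adgre1 and Ptprc are highest in day 10 GFP+ cells.

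**Figure D4:**
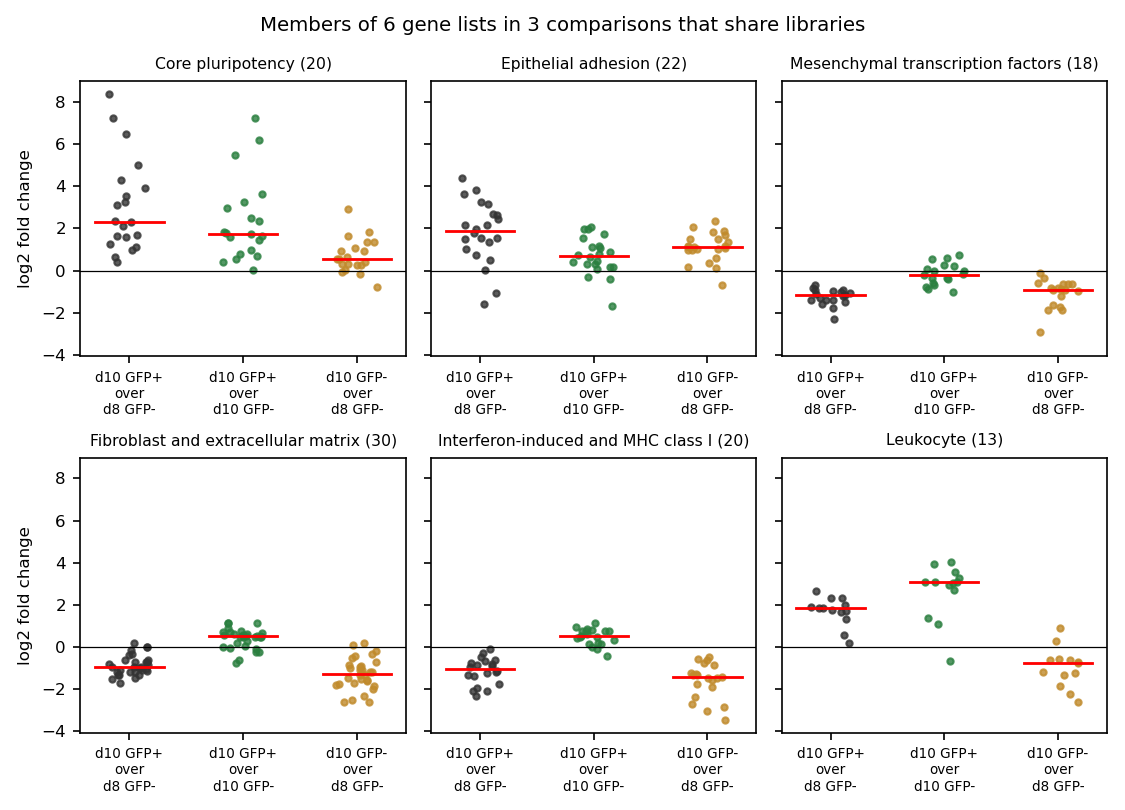
Log2 fold change (vertical axis) of each tested member of 6 gene lists in 3 comparisons, which share libraries, 1 point per gene and a red bar at the median. The medians of the core list are 2.32, 1.75 and 0.56, those of the interferon list -1.06, 0.52 and -1.44, and those of the leukocyte list 1.83, 3.08 and -0.75, in the order drawn.

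Markers of other lineages gave mixed or low values. The counts of their lists are to be read against 22.6% of all tested genes called higher and 20.1% lower. Pecam1 (CD31), shared by endothelium and naive pluripotent cells, rose by 4.44 ± 0.24, and Vwf (von Willebrand factor) had 2.34, 2.16 and 3.55 CPM in day 10 GFP+ libraries, against 0.282, 0 and 0 CPM at day 8. Tek, the angiopoietin receptor, fell, with 47.8, 54.0 and 57.1 CPM in day 10 GFP+ and 131, 139 and 116 CPM in day 8 libraries (-1.28 ± 0.12), and Cdh5, which defines endothelium, stayed at or below 0.601 CPM in day 10 GFP+ and 1.03 CPM in day 8 libraries. Of 7 tested endothelial genes 3 rose and 2 fell, 1 falling without the first day 10 GFP+ or the third day 8 library. In the neural list 4 of 11 tested genes rose and 5 fell, Stmn2 (1.81 ± 0.14) and Elavl3 (4.38 ± 0.42) among the first and Nes (-1.34 ± 0.13) and Dcx among the second, with Neurod1 at 0 counts. Trophectoderm and placenta genes were 5 higher, 4 lower and 7 not called of 16. Tfap2c, a factor shared by trophoblast, germ cells and naive cells, had 131, 109 and 106 CPM in day 10 GFP+ libraries, against 26.9, 24.4 and 29.8 CPM in day 8 libraries (2.09 ± 0.15, adjusted p = 1.62e-09), while its paralogue Tfap2a had 15.9, 15.4 and 13.3 CPM in day 10 GFP+ and 66.3, 65.7 and 73.6 CPM in day 8 libraries (-2.20 ± 0.14, adjusted p = 7.12e-10). The 2 paralogues thus went in opposite directions with no overlap in either. Of the endoderm list, 1 of 9 tested genes was called, Col4a1, a basement-membrane collagen (-0.80 ± 0.20), 2 being lower without the first or the second day 10 GFP+ library. With the line as a block, with DESeq2 and without the first day 10 GFP+ library 1 endoderm gene was called higher, and Sox17 had no count. In the keratin list 4 of 9 tested genes rose and 2 fell, the rises being 2 without the first day 10 GFP+ or the second day 8 library and with the 2 groups fitted alone. Lgals7, a galectin of stratified epithelia, had 5.53, 5.41 and 5.47 CPM in day 10 GFP+ and 35.6, 33.1 and 35.1 CPM in day 8 libraries (-2.66 ± 0.22). Krt8, a keratin of simple epithelia, had 41.7, 11.5 and 42.6 CPM in day 10 GFP+ and 13.4, 6.98 and 29.7 CPM in day 8 libraries, and was not called (adjusted p = 0.155). With the line as a block it was called (log2 fold change 0.91, adjusted p = 0.00772), as it was without the second day 10 GFP+ library (1.33, 0.0337) or the third day 8 library (1.63, 0.0265).

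Imprinted genes were lower as a group of counts, 14 of 28 tested being called lower and 2 higher (median -0.44), against 20.1 and 22.6% of all tested genes. Peg10, a retrotransposon-derived gene of the placenta, had 86.9, 74.0 and 82.9 CPM in day 10 GFP+ libraries, 278, 334 and 274 CPM in day 10 GFP- libraries and 726, 592 and 716 CPM in day 8 libraries (-3.06 ± 0.21 over day 8, adjusted p = 2.19e-09). Plagl1, a zinc-finger growth suppressor, fell by 2.15, and Gnas, a G-protein subunit gene, by 0.80. Phlda2, a maternally expressed growth inhibitor, rose, with 12.4, 6.97 and 9.77 CPM in day 10 GFP+ libraries, against 0.282, 0.205 and 0.410 CPM in day 8 libraries (adjusted p = 2e-10). The noncoding RNAs H19 and Meg3 were not called, H19 with 686, 1626 and 1193 CPM in day 10 GFP+ and 1059, 1766 and 1879 CPM in day 8 libraries (adjusted p = 0.279). The count of 14 was 9 without the first day 10 GFP+ library and 8 without the second day 8 library. Dcn is in this list and in the fibroblast list.

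**Figure D5:**
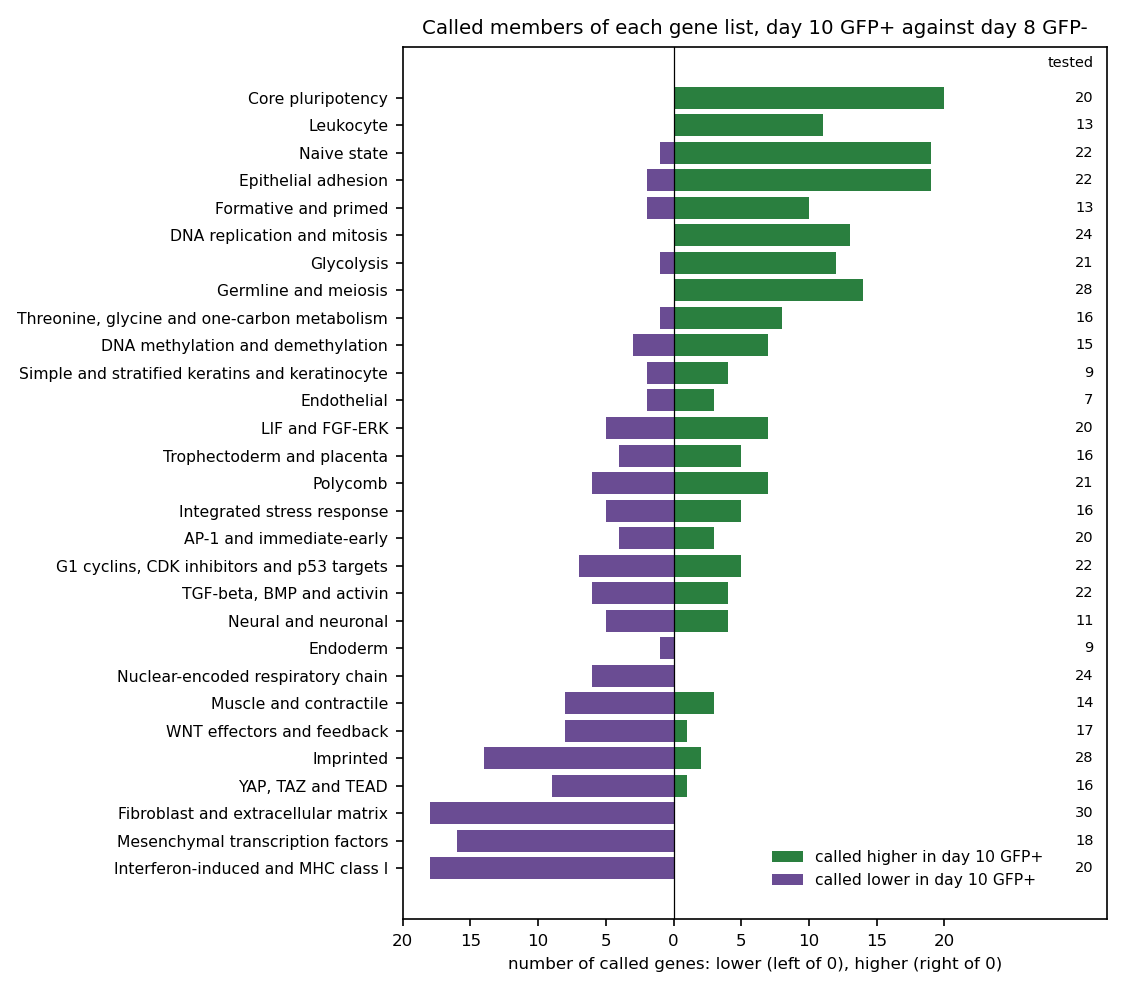
Number of called members (horizontal axis) of each of the 29 gene lists with more than 5 tested genes, higher in day 10 GFP+ than in day 8 GFP- cells to the right of 0 in green and lower to the left in purple, with the number tested at the right edge. Core pluripotency (20 of 20 higher) and interferon-induced and MHC class I (18 of 20 lower) stand at the ends of the list, against 22.6 and 20.1% of all tested genes.

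Genes of glycolysis and of threonine, glycine and one-carbon metabolism were called higher more often than lower. In the glycolysis list 12 of 21 genes were called higher and 1 lower (median 0.35), where 22.6% of all tested genes were called higher and 20.1% lower. Slc2a3 (GLUT3), a glucose transporter, had 937, 799 and 1026 CPM in day 10 GFP+ libraries, 547, 428 and 452 CPM in day 10 GFP- libraries and 286, 180.2 and 347 CPM in day 8 libraries (1.76 ± 0.19 over day 8). Pfkp, a phosphofructokinase, rose by 1.503 ± 0.17, and Pdk1, which restrains pyruvate oxidation, by 1.19 ± 0.11. Hk1 was the 1 called lower (-0.49 ± 0.11). In the threonine, glycine and one-carbon list 8 of 16 were called higher and 1 lower (median 0.35). Tdh, the threonine dehydrogenase on which mouse pluripotent cells depend, had 413, 432 and 463 CPM in day 10 GFP+ and 58.3, 43.7 and 132 CPM in day 8 libraries (2.48 ± 0.29, adjusted p = 2.58e-06). Amt and Gldc, parts of the glycine cleavage system, rose by 3.30 ± 0.20 and 2.85 ± 0.22. The groups did not overlap in Tdh, Amt or Gldc. Nuclear-encoded genes of the respiratory chain changed little, with 6 of 24 called lower and none higher (median -0.11), against 20.1 and 22.6% of all tested genes. Cox5b, a subunit of complex IV, was among those called lower (-0.48 ± 0.09). The number called higher was 1 without the first day 8 library, with library totals alone and with the 2 groups fitted alone, and 2 without the first WT iPSC library.

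Of the cell-cycle lists, that of replication and mitosis held calls in the upward direction alone, and that of the G1 phase held both. In the replication and mitosis list 13 of 24 tested genes were called higher and none lower (median 0.30), led by the spindle-checkpoint kinases Bub1b (0.76 ± 0.09) and Bub1 (0.82 ± 0.12), while Mki67 was not called (-0.30 ± 0.20, adjusted p = 0.247), although it was with the 2 groups fitted alone (adjusted p = 0.0277) and without the first WT iPSC library (0.00953). Among G1 cyclins, inhibitors and p53 targets 5 of 22 rose and 7 fell, the falls being 4 without the first day 10 GFP+ library. The rises were near the 22.6% of all tested genes called higher, and 20.1% of all tested genes were called lower. Gadd45a, a stress-induced growth-arrest gene, had 42.6, 41.3 and 48.4 CPM in day 10 GFP+ and 19.5, 13.9 and 16.7 CPM in day 8 libraries (1.40 ± 0.15). Ccne1 (cyclin E1) rose by 0.72 ± 0.09, and Cdkn1a (p21) fell, with 134, 197 and 179 CPM in day 10 GFP+ and 274, 274 and 248 CPM in day 8 libraries (-0.64 ± 0.12). Trp53 itself rose by 0.63 ± 0.09.

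Among signalling genes, the WNT and the YAP, TAZ and TEAD lists held more members called lower than higher, and the other pathways had calls in both directions. These counts are to be read against 22.6% of all tested genes called higher and 20.1% lower. In the LIF and FGF list 7 of 20 were called higher and 5 lower, with 4 higher without the second day 10 GFP+ library or without the first day 8 library. Fgf4, the autocrine ligand of pluripotent cells, had 232, 191 and 231 CPM in day 10 GFP+ libraries, against 23.2, 15.9 and 36.2 CPM in day 8 libraries (3.11 ± 0.21, adjusted p = 1.49e-09). The feedback inhibitor Spry2 rose by 0.91 ± 0.10, and the receptor Fgfr1 and the LIF co-receptor Il6st fell (-0.55 ± 0.09 and -0.88 ± 0.17). In the TGF-beta list 4 of 22 rose and 6 fell, shares near those of all tested genes, the falls being 3 without the first day 10 GFP+ or the third day 8 library. Smad7, the inhibitory SMAD, had 53.1, 79.2 and 69.8 CPM in day 10 GFP+ libraries, 13.9, 15.1 and 18.5 CPM in day 10 GFP- libraries and 15.9, 19.3 and 22.4 CPM in day 8 libraries (1.81 ± 0.21), so that its step lay between the gates. Smad3, an effector, fell by 0.81. WNT effectors and feedback genes were 8 lower and 1 higher of 17 tested (median -0.39). Nkd1, a feedback antagonist, had 0.369, 0.361 and 0.444 CPM in day 10 GFP+ and 4.04, 5.14 and 3.07 CPM in day 8 libraries. Its day 10 GFP+ values lay at the floor of 3 counts per library, and no fold is given. Axin2, a feedback target, fell to 1.72, 2.28 and 1.33 CPM in day 10 GFP+, against 5.35, 5.24 and 4.71 CPM in day 8 libraries (adjusted p = 0.000748). The secreted antagonist Sfrp2 fell by 2.20. The receptor Fzd5 was the 1 called higher (0.67 ± 0.09), the count being 2 when any 1 of the libraries other than the first day 10 GFP+ library was left out, and 3 without the first WT iPSC library. Of the YAP, TAZ and TEAD list 9 of 16 were lower and 1 higher (2 higher without the third day 8 library). Wwtr1 (TAZ), a co-activator, fell by 1.16, and the receptor kinase Axl by 1.43. The DNA-binding partner Tead4, active in preimplantation embryos, rose, with 121, 89.9 and 94.2 CPM in day 10 GFP+ and 30.4, 30.5 and 36.0 CPM in day 8 libraries (1.65 ± 0.13). AP-1 and immediate-early genes were 3 higher and 4 lower of 20 (1 higher without the second day 8 library), no more often than all tested genes. Fos, Jun and Junb were not called (adjusted p of 0.466, 0.265 and 0.382), Jun reaching an adjusted p of 0.0407 without the third day 10 GFP+ library. In the integrated stress response list 5 of 16 rose (3 without the second day 8 library) and 5 fell (3 without the first day 10 GFP+ library), the rises being led by Asns (1.08 ± 0.11), asparagine synthetase, and Chac1 (2.35 ± 0.33), a glutathione-degrading enzyme, and the falls by Atf5 (-0.91 ± 0.15), a stress-response transcription factor. Of the 2-cell-like list 5 genes were tested and none was called, the highest summed level of the list in any library of the 3 groups being 0.123 CPM.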

How the data were processed

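PolyA RNA of sorted cells was sequenced from stranded KAPA libraries, per the labels' protocols. The submitters' processing notes name HISAT2 2.1.0, featureCounts 1.5.3, DESeq2 1.18.1 and the mm10 build. The deposited table holds raw counts per gene name, taken over whole gene bodies with strand setting 2, per the file headers. Of its 21 libraries, 7 groups of 3, all entered 1 fit, and with it the filter on low counts and the estimate of spread. Besides the groups compared here, these were totalx2 day 12 GFP+ and GFP- cells, WT iPSC clones and Tet1 knockout iPSC clones. The other table of the series was not analysed here.

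From the deposited counts, edgeR 4.0.16 in R 4.3.3 was run with filterByExpr, TMM scaling, 1 mean per group and the robust quasi-likelihood F test, with Benjamini-Hochberg adjustment over 15197 genes and a threshold of 0.05. Named genes are the 12 largest rises and 12 largest falls (called, at least 10 CPM in the higher group, no overlap), up to 4 called members of each list by smallest p and 1 against its direction, and a set of reporter, pluripotency and identity genes. Further members, such as L1td1, Nodal, Snai1 and Ptprc, were chosen after their values were seen. Members and the 30 gene lists were chosen with earlier results of these data known. The groups share lines, and deviations from group means of libraries of 1 line correlated in all 30 totalx2 pairs (r of 0.126 to 0.593), so the line pairs the libraries. The fit with the line as a block is an alternative, as are RLE size factors, library totals, other filters, the 2 groups alone, DESeq2 1.42.0 and each library left out. The code was tested on simulated data. Figures were drawn with matplotlib 3.10.9.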

Additional observations from a re-analysis of the deposited data

How the results depend on the processing

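Of 6489 calls between day 10 GFP+ and day 8 GFP- cells, RLE size factors gave 6482, library totals 6283, no low-count filter 5808, a minimum of 1 CPM 6492, the 2 groups alone 6233 and DESeq2 6535. The split into higher and lower was 3280 and 3202 with RLE size factors, and 3629 and 2654 with library totals. With the line as a replicate block the number of calls was 6866, with 6413 called in both fits. The block moved no count of calls over all genes in the 3 comparisons by over 1.5 times, and of the 182 named genes in the first comparison it changed the call of Krt8 alone. Between the gates of day 10 it added the calls of Col1a1, Dcn, Ccnb1, Cdkn1a, Atf5, Isg15, Rif1, Jun and Fos (adjusted p of 0.00498 to 0.0372), and between day 10 GFP- and day 8 cells those of Olig2, Hhip, Thy1, Krt8, Meox2, Tcf4, Pfkp, Cdkn1a and Lyz2 (0.00978 to 0.0489). With 1 library left out the count lay between 5052 and 6175 (2788 to 3223 higher, 2249 to 2952 lower). For day 10 GFP+ against day 10 GFP- cells that range was 2636 to 3021 (1462 to 1681 higher, 1168 to 1342 lower). For day 10 GFP- against day 8 cells it was 1629 to 3455 (870.0 to 1632 higher, 759 to 1823 lower). Without the first WT iPSC library, whose mitochondrial share was 12.2%, an alternative chosen after seeing the data, 7825 genes were called in the first comparison. There were then 2169 lower in day 10 GFP+ than in day 10 GFP- cells and 2492 higher in day 10 GFP- than in day 8 cells. The cause was not tested. No named gene reversed in any of these fits of the first comparison. Atp5c1 lost its call with no low-count filter (adjusted p = 0.0547), and Nr4a1 without the first day 10 GFP+ library (0.0537) or the first or second day 8 library (0.0618 and 0.0795). The day 10 GFP+ libraries, with 6540256 to 8084865 counts, were shallower than those of day 10 GFP- and day 8, which limits genes near 1 CPM.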

Other observations

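Some genes that were higher in day 10 GFP+ than in day 8 cells stood at another level in later groups of the same fit. These genes were chosen after their values were seen, no test was made, and iPSC clones differ from sorted fractions in more than time. Lefty1 had 38.5, 39.9 and 37.6 CPM in day 10 GFP+, 14.8, 17.04 and 11.5 CPM in day 12 GFP+ and 3.20, 10.02 and 7.36 CPM in WT iPSC libraries. Lefty2 had 50.02, 69.2 and 69.1 CPM in day 10 GFP+, 27.01, 41.9 and 35.8 CPM in day 12 GFP+ and 16.1, 9.94 and 9.24 CPM in WT iPSC libraries. For both, all day 10 GFP+ libraries lay above all later ones. Dppa3 was at 36.6, 31.4 and 30.5 CPM in day 10 GFP+, 60.5, 43.3 and 42.3 CPM in day 12 GFP+ and 8.14, 6.52 and 4.62 CPM in WT iPSC libraries, the day 12 libraries being highest. Nlrp4f, an oocyte and pluripotent-cell gene of the NLR family, had 4.18, 5.77 and 5.92 CPM in day 10 GFP+, 10.6, 24.4 and 17.7 CPM in day 12 GFP+ and 261, 228 and 222 CPM in WT iPSC libraries, against 0 in every day 8 library.

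Among genes too low for the rule on named genes, Htr3a, a serotonin-gated ion channel, had 0 CPM in every day 10 GFP+ library, 0.819, 0.708 and 0.337 CPM in day 10 GFP- and 10.2, 9.55 and 3.48 CPM in day 8 libraries (adjusted p = 1.49e-06 against day 8, edgeR). Elmod1 likewise had 0 CPM in every day 10 GFP+ library, 1.15, 0.620 and 1.51 CPM in day 10 GFP- and 2.54, 1.95 and 0.922 CPM in day 8 libraries (adjusted p = 0.000101, edgeR).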
